A study of Mus musculus with 289 samples.

Results

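The genes described here are the 45 glutathione and peroxide defence genes of a table of 15019 genes measured in single cells of mouse tail epidermis. The rule reads gene symbols: every glutathione S-transferase of the a, k, m, p, t, o and z families with a numbered symbol, every glutathione peroxidase (Gpx), peroxiredoxin (Prdx) and superoxide dismutase (Sod), and 12 named genes, Gclc, Gclm, Gsr, Gss, Cat, Txn1, Txnrd1, Nqo1, Hmox1, Nfe2l2, Keap1 and Srxn1. All cells came from unwounded tail skin (time t0) of mice on a CBA C57BL/6 mixed background that carried Lrig1-EGFP-ires-CreERT2 together with the reporter allele Rosa26-fl/STOP/fl-tdTomato. In these mice a single topical dose of hydroxytamoxifen on the tail turns on tomato in cells that express Lrig1, a stem cell gene of the hair follicle junctional zone, and their descendants keep the colour. The skin then received vehicle or PRT4165, a small molecule that blocks Ring1A and Ring1B, the histone H2A ubiquitin ligases in Polycomb repressive complex 1, and tomato-positive cells were sorted into plates and sequenced 1 by 1 with a modified Smart-seq2 protocol.

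Vehicle and PRT4165 each had 2 plates, which are the replicates, and every mouse carried the same alleles and received hydroxytamoxifen, so the comparison holds for labelled Lrig1 progeny only. The labels do not tie cells to animals, and no plate held cells of both treatments, so a difference between plates and one between treatments cannot be told apart for a single plate. The treatment labels also carry a code, PR9 on every vehicle plate and PR12 on every PRT4165 plate, whose meaning they do not give. A difference between the codes and one between the treatments therefore cannot be told apart, over all plates as well. After the filter on mitochondrial counts, 70 and 55 vehicle cells and 72 and 77 PRT4165 cells remained, 274 in all, with 25761756 to 41592716 estimated counts on a plate. Values for a plate are given throughout in the order vehicle replicate 1, vehicle replicate 2, PRT4165 replicate 1, PRT4165 replicate 2, in CPM (the summed counts of a plate's cells, scaled to a common library total with TMM factors).

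The labelled cell type was keratinocyte, and all 11 keratinocyte markers looked for were in the table, with a summed level of 16342 to 21023 CPM. The 2 leukocyte markers in the table, of 7 listed, summed to at most 2.71 CPM, and the single erythroid and muscle markers stayed under 1 CPM on every plate. Fibroblast markers (5 of 6 in the table) summed to 8.16 and 20.8 CPM on the vehicle plates and 82.1 and 7.67 CPM on the PRT4165 plates, and melanocyte markers (3 of 5) to 38.4, 26.5, 32.8 and 6.26 CPM. Pecam1 was the only endothelial marker present of 4 listed and read 535, 413, 205 and 641 CPM. Sebaceous markers summed to 695 and 1712 CPM with vehicle and 1041 and 3092 CPM with PRT4165, basal markers to 2639, 3790, 2524 and 2485 CPM and suprabasal markers to 14686, 8339, 8287 and 16257 CPM.

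Glutathione is a small thiol that keratinocytes hold at high concentration. Gclc and Gclm, the catalytic and modifier subunits of glutamate-cysteine ligase, make its precursor, Gss completes it and Gsr returns the oxidised form to the reduced one. Glutathione peroxidases spend it on peroxides, glutathione S-transferases couple it to reactive compounds, and peroxiredoxins do the work of peroxidases with thioredoxin as the reductant. Superoxide dismutases convert superoxide to hydrogen peroxide, which catalase (Cat) breaks down. Much of the group is under the transcription factor NRF2, encoded by Nfe2l2, which Keap1 holds back in unstressed cells and which binds antioxidant response elements.

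The core of that element, TGACNNNGC, was looked for on both strands of the 250 bases before each start that RefSeq lists for a gene (build GRCm38.p6), because the members could share it. Such sequences matched 38 members. The core was held in any of a gene's windows by 8 of them, or 21.1%, against 1532 of 11718 genes of the table (13.1%). A match is a run of letters and not a site of binding. Below are 5 of the 8 matches, in members whose levels are described further on, each written 5′ to 3′ on the strand that carries the core, with the core in capitals. RefSeq lists 3 starts for Txnrd1, and its match lies before one that is inside the gene as GENCODE places it.
Prdx1, chr4:116685458-116685482, minus strand: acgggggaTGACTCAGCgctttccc
Gclm, chr3:122245415-122245439, minus strand: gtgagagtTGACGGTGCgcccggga
Txnrd1, chr10:82859106-82859130, minus strand: tgtcagaaTGACAAAGCaaaaatcc
Gstm5, chr3:107895804-107895828, plus strand: ccgcccacTGACCACGCggagggcg
Gsta3, chr1:21240456-21240480, plus strand: ctcaggcaTGACATTGCatttttct

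Members differed widely in level, and a pair of them carried much of the total. Summed over all members, expression was 4375, 4609, 3950 and 5248 CPM, and Txn1 and Prdx1 together made up 40.9%, 39.4%, 46.0% and 42.3% of it. Per kilobase of transcript, the scale on which genes can be compared, Txn1 stood first at 987 ± 79.1 CPM per kb (SD, n = 4 plates), followed by Prdx1 at 551 ± 157, Gstm5 at 459 ± 110 and Gpx1 at 282 ± 58.0. The ranges of mean ± SD of Prdx1 and Gstm5 overlapped. Gstm5 was above Prdx1 on both vehicle plates (576 and 456 against 444 and 438 CPM per kb). It was below Prdx1 on both PRT4165 plates (312 and 492 against 550 and 774 CPM per kb). Gsto1 (213 ± 45.0), Gpx4 (195 ± 88.0), Prdx5 (190 ± 14.3) and Gstm1 (167 ± 32.4) came next. Their ranges of mean ± SD overlapped, and those of Gsto1 and Gpx4 also overlapped that of Gpx1. Of the 45 members, 8 were above 100 CPM on all 4 plates. A count was present in at least 20% of the cells of a plate for 27 members, and these are described by plate. The other 18 were sparser, with at most 18.2% of cells on any plate and 0 to 41.7 CPM.

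**Figure D1:**
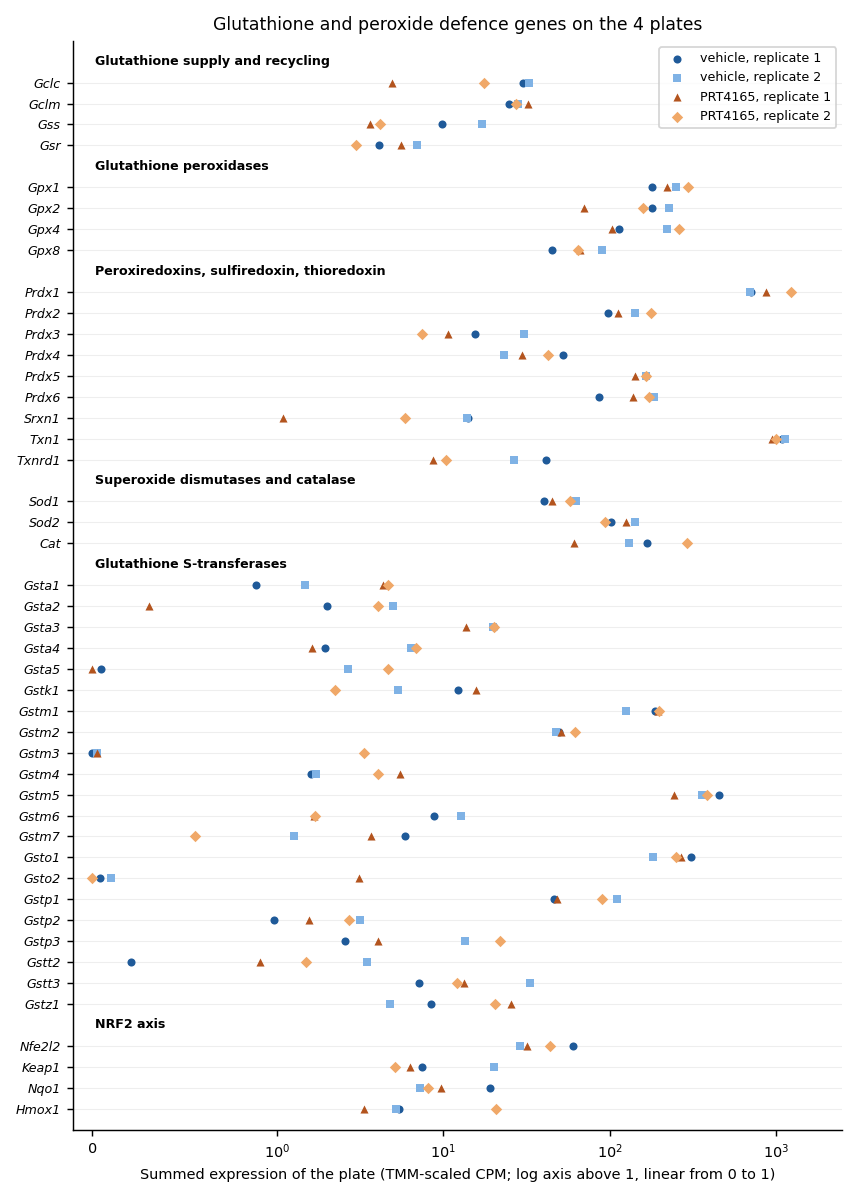
Summed expression of the 45 members on each plate in TMM-scaled CPM, 1 point per plate, grouped by role; the axis is logarithmic above 1 and linear from 0 to 1. Txn1 and Prdx1 lie farthest right on every plate, and the points of Prdx5 and Txn1 lie closer together than those of Gclc, Srxn1 or Gstm6.

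Among the glutathione peroxidases, Gpx1, the cytosolic peroxidase, read 180, 249, 220 and 295 CPM and had a count in 85.7% to 94.8% of the cells of a plate. Gpx4, which reduces lipid peroxides in membranes, read 114, 221, 103 and 262 CPM in 80.0% to 96.4% of cells. Its plates split by replicate number rather than by treatment, with both replicate 2 plates above both replicate 1 plates. Gpx1 had the same order, as did Prdx2, Prdx6, Sod1 and Gstp1 below, among others. The share of all genes with that order was not counted. In means over cells, where every cell had equal weight, Gpx4 and Gstp1 kept the order. Prdx2, Prdx6 and Sod1 did not keep it. Gpx1 had the reverse order there, at 379.7, 320.9, 335.2 and 311.4 CPM. For these 4 genes the split thus held for the summed counts only. Gpx2, an epithelial peroxidase, read 181, 227, 70.4 and 158 CPM but in only 40.3% to 47.1% of cells. Gpx8, a member of the secretory pathway, read 45.1, 89.3, 66.2 and 64.8 CPM.

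The peroxiredoxins were led by Prdx1, a cytosolic form, at 704, 694, 873 and 1226 CPM, with a count in 92.9% to 100% of cells. Prdx2, its close relative, read 98.3, 142, 112 and 178 CPM, and Prdx5 read 166, 166, 142 and 165 CPM. The Prdx5 plates lay closest together of the 3. Prdx6, which uses glutathione in place of thioredoxin, read 86.5, 183, 138 and 172 CPM, and Prdx4 of the endoplasmic reticulum read 52.6, 23.2, 29.8 and 42.8 CPM. Prdx3, the mitochondrial form, was among the sparser members at 15.6, 30.4, 10.8 and 7.47 CPM. Txn1, the thioredoxin that reduces most of them, read 1088, 1124, 944 and 992 CPM in 98.6% to 100% of cells. Its reductase Txnrd1 read 41.7, 26.6, 8.65 and 10.4 CPM, and Srxn1, which repairs overoxidised peroxiredoxins, read 14.1, 14.0, 1.09 and 5.90 CPM. Both genes lay lower on both PRT4165 plates than on both vehicle plates, and both were sparse. A single cell gave 79.6% of the Txnrd1 counts of vehicle replicate 1.

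Copper-zinc dismutase Sod1 read 40.5, 63.0, 45.3 and 57.5 CPM and mitochondrial Sod2 read 102, 142, 125 and 93.2 CPM. Catalase varied more, at 168, 130, 60.9 and 290 CPM, and the PRT4165 plates enclosed both vehicle plates. In the supply of glutathione, Gclc read 30.1, 32.6, 4.93 and 17.7 CPM and Gclm 24.9, 28.3, 32.4 and 27.2 CPM. The catalytic subunit was thus below both vehicle plates on both PRT4165 plates, while the modifier subunit overlapped. Gss read 9.89, 17.1, 3.64 and 4.15 CPM and Gsr 4.14, 6.98, 5.57 and 3.01 CPM, each in at most 15.3% of cells.

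The transferases were led by 4 genes. Gstm5 read 452, 358, 245 and 386 CPM, Gsto1, of the omega class, 310, 182, 266 and 251 CPM, and Gstm1 187, 126, 196 and 198 CPM. Gstp1 read 46.3, 110, 48.5 and 89.4 CPM and split by replicate number as Gpx4 did. Gstm2 lay between 47.7 and 61.5 CPM, Gstt3 between 7.14 and 33.3 CPM, Gstk1 between 2.25 and 15.8 CPM, and Gsta3, of the alpha class, between 13.7 and 20.3 CPM. Gstz1, which also takes part in tyrosine breakdown, read 8.41, 4.76, 25.5 and 20.5 CPM, so that both PRT4165 plates were above both vehicle plates. Gstp3 read 2.58, 13.4, 4.07 and 22.0 CPM. The others, Gsta1, Gsta2, Gsta4, Gsta5, Gstm3, Gstm4, Gstm6, Gstm7, Gsto2, Gstp2 and Gstt2, stayed between 0 and 12.8 CPM. The 7 Gstm genes lie side by side on chromosome 3 (GRCm38), Gstp1, Gstp2 and Gstp3 on chromosome 19, and Gsta1, Gsta2 and Gsta4 on chromosome 9, and reads of such near copies can be divided among them by the estimation, so the values of single copies are uncertain.

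Of the regulators and classical NRF2 targets, Nfe2l2 itself read 60.2, 29.1, 31.7 and 44.1 CPM, with the PRT4165 plates inside the range of the vehicle plates. Keap1 read 7.48, 20.2, 6.30 and 5.17 CPM. Nqo1, a quinone reductase, read 19.0, 7.24, 9.64 and 8.08 CPM, and Hmox1, the haem oxygenase, 5.41, 5.20, 3.34 and 20.8 CPM in at most 10.0% of cells. A single cell gave 53.7% of the Hmox1 counts of PRT4165 replicate 2. Over all members, 22 had at least 1 plate on which a single cell gave over 50% of the counts, and these include all 18 sparser members.

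In single cells the abundant members were spread over a wide range on every plate. Prdx1 had a median of 549, 716, 750 and 925 CPM over the cells of a plate, and its highest cells reached 4603, 2899, 3845 and 3475 CPM. Txn1 had medians of 916, 822, 522 and 806 CPM and highest cells of 9777, 5067, 3856 and 4513 CPM. Gstm5 had medians of 235, 110, 108 and 237 CPM with highest cells of 2543 to 3943 CPM. After thinning to 50000 non-mitochondrial counts a cell, which left out 11, 1, 11 and 5 shallower cells, Gpx2 was found in 36.1% to 50.8% of cells and Gpx4 in 77.0% to 91.7%, so Gpx2 remained the more unevenly detected of the pair.

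The first comparison asked whether PRT4165 altered these genes in unwounded Lrig1 progeny. In the edgeR quasi-likelihood test on plate sums, no member of the 43 that could be tested changed at an adjusted p of 0.05, and neither did any of the 12791 genes tested (0.0%). The smallest adjusted p of a member was 0.971, for Gstm6. At an unadjusted p under 0.05, 0 members were higher with PRT4165, against 2.79% of all genes, and 2 were lower (4.65% of members, against 2.13% of all genes). DESeq2 on the same sums called 0 members and 174 genes. The median log2 fold change was -0.06 over the members and -0.02 over all genes, with 19 members above 0 and 24 below. The median standard error of a member was 0.73. A log2 difference of -2.67, that of Gstm6, did not pass the adjusted threshold, so changes of that size could also go undetected.

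The members nearest to a difference were low in level. Gstm6 read 8.75, 12.8, 1.67 and 1.71 CPM, a difference on the log2 scale of -2.67 (95% interval -4.97 to -0.38, unadjusted p = 0.0276 by edgeR). Txnrd1, whose plate values are given above, differed by -1.84 on that scale (-3.52 to -0.16, p = 0.0351 by edgeR, adjusted p = 0.988). Gss (-1.79, -3.86 to 0.28) and Srxn1 (-2.01, -4.45 to 0.44) came next, and all 4 had both PRT4165 plates below both vehicle plates. On the higher side were Gstz1 (1.80, -0.05 to 3.65), Gsta1 (1.93, -0.80 to 4.67), Prdx1 (0.59, -0.38 to 1.55) and Gstm4 (1.52, -1.08 to 4.11), each with both PRT4165 plates above both vehicle plates. The adjusted p of these 6 was 0.997 in the same edgeR test.

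Counted by that order alone, 10 members (23.3%) had both PRT4165 plates below both vehicle plates, which 15.6% of all genes did, and 6 (14.0%) had both above, which 16.4% of all genes did. The 6 were Gsta1, Gstm1, Gstm2, Gstm4, Gstz1 and Prdx1. The 10 were Gclc, Gpx2, Gss, Gstm6, Keap1, Prdx3, Prdx5, Srxn1, Txn1 and Txnrd1. The gap was small for Prdx5 and Txn1, whose intervals ran from -1.21 to 0.97 and from -1.10 to 0.72. Intervals for the abundant members were narrower and included 0. For Gpx1 the interval ran from -0.83 to 1.36, for Gstm5 from -1.43 to 0.71 and for Gpx4 from -1.29 to 1.54. For Txnrd1 and Srxn1 the share of cells with a count was also looked at. Txnrd1 had a count in 10.0%, 16.4%, 13.9% and 18.2% of cells and Srxn1 in 14.3%, 14.5%, 11.1% and 18.2%, so neither gene had both PRT4165 plates below both vehicle plates on that measure. The sebaceous marker sum given above also differed between plates, and its part in these values was not tested.

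**Figure D2:**
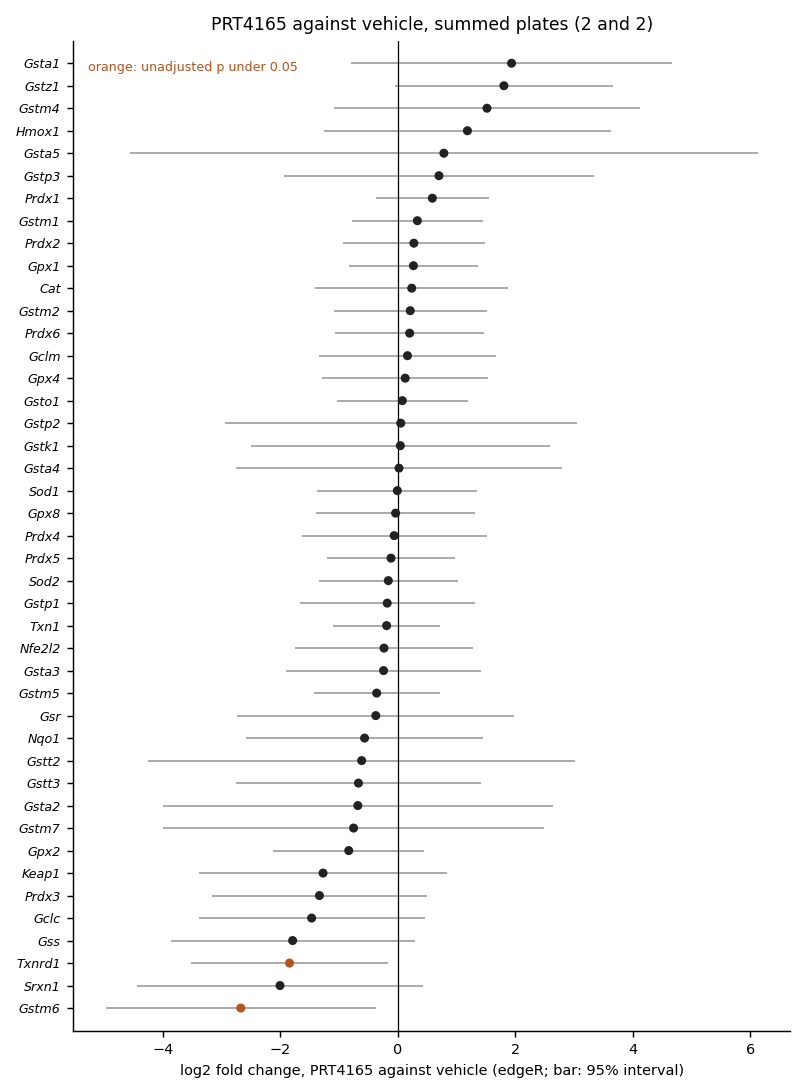
Log2 fold change of PRT4165 against vehicle for the 43 members tested (points) with 95% intervals (bars), from summed counts of 2 plates each. Gstm6 and Txnrd1, in orange, are the 2 members with an interval that leaves out 0.

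The further genes of the pathway, a list of 71 that holds other transferases, glutaredoxins, NADPH suppliers, selenoprotein genes and NRF2 partners, held no call either. Of 66 tested, 0 were called. At an unadjusted p under 0.05 in edgeR, 3 were higher and 2 lower, against 2.79% and 2.13% of all genes. Isocitrate dehydrogenase Idh1, a source of cytosolic NADPH, had the second smallest p of the list at 36.6, 23.7, 169 and 100.2 CPM, which is 2.16 ± 0.60 (SE) on the log2 scale with an adjusted p of 0.862 in edgeR. Aldh1a1, a retinal dehydrogenase, was listed at 0 on both vehicle plates and at 13.4 and 2.63 CPM on the PRT4165 plates. The efflux pump Abcc1, which exports glutathione conjugates, read 41.2, 144, 14.0 and 31.5 CPM.

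The second comparison described the members by the level of 3 keratinocyte genes within each plate: Krt14, the keratin of basal cells, Krt10, the keratin of differentiating cells, and Scd1, a lipid desaturase that is high in sebocytes. The cells of each plate were ranked by CPM of the gene, and the top 1 in 3 (high) were compared with the bottom 1 in 3 (low), where all cells tied with the last of the low cells were kept in. Such a class is a range and not a cell type. The sums of the high and of the low cells of the 4 plates gave 8 sums for the test, with the plate as a block. The classes by different genes share cells, so the 3 comparisons are not independent.

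The smallest adjusted p of a member in edgeR was 0.132 by Krt10, 0.414 by Krt14 and 0.530 by Scd1, all above the threshold. Krt10 itself read 12793, 7175, 11706 and 20069 CPM in the high cells and 0, 0, 0 and 2.70 CPM in the low cells, and 3 to 10 cells of a plate lay within 2-fold of the limit of the high class. The cells with high Krt10 had a mean of 343 CPM of Gpx2, 309 CPM of Prdx5 and 551 CPM of Gstm5, against 43.7, 72.4 and 178 CPM in the cells with low Krt10, while Sod1, Gclc, Gsr and Txnrd1 went the other way. No member of 40 tested passed the adjusted threshold, which 25 of 10370 genes did (0.241%), all of them higher with Krt10. With vehicle replicate 1 left out that count of genes was 0, with PRT4165 replicate 1 left out it was 1, and with vehicle replicate 2 left out it was 13, while no plate left out brought a member past the threshold.

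Gpx2 read 313, 653, 98.7 and 307 CPM in the high cells and 50.8, 36.3, 42.9 and 44.6 CPM in the low cells, so that the lowest high class exceeded the highest low class. Its log2 difference was 2.69 ± 0.58 (SE), with an unadjusted p of 0.00196 and an adjusted p of 0.132 in edgeR. A count of Gpx2 was present in 52 of 90 high cells and 34 of 102 low cells. Prdx5 read 255, 433, 250 and 298 CPM in the high cells and 75.9, 48.4, 91.9 and 73.3 CPM in the low cells, a log2 difference of 2.09 ± 0.46 (adjusted p = 0.135 by edgeR). The classes did not overlap, and Prdx5 was common on both sides, with 88 of 90 and 77 of 102 cells. Gstm5 read 608, 730, 301 and 567 CPM against 183, 217, 178 and 132 CPM, a log2 difference of 1.59 ± 0.37 (adjusted p = 0.158 by edgeR).

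A group of sparse members was found almost only on the high side. Gstm6 had 641 counts in 13 of 90 high cells and 0 counts in 102 low cells, which allows up to 2.94% of low cells with a count at this depth (a limit on cells with a count, not on cells with the transcript), and it was at least 216-fold higher in the high cells against a floor of 3 counts over the group. Gsta1 had 428 counts in 13 high cells and 0 in the low cells, at least 144-fold higher by the same floor. Gsta5, which was too sparse for the test, had a count in 5 high cells and in 0 low cells, at least 97.5-fold higher. Srxn1 read 27.6, 32.1, 2.17 and 13.8 CPM in the high cells and 0, 11.0, 0 and 0.0676 CPM in the low cells, where 1 of 2 cells with a count gave 99.3% of the counts. These counts come from few cells. For Gstm6, 1 cell gave 42.7% of the high side, and such floors cover counting error only.

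On the low side of Krt10, Sod1 read 65.3, 83.4, 74.1 and 56.9 CPM against 4.75, 21.2, 23.1 and 43.8 CPM in the high cells, a log2 difference of -1.93 ± 0.76 (adjusted p = 0.361 by edgeR). It had a count in 89 of 102 low cells and 42 of 90 high cells. Gclc read 47.3, 68.8, 8.42 and 32.4 CPM in the low cells and 16.6, 8.54, 0.217 and 4.36 CPM in the high cells (-3.06 ± 0.91, adjusted p = 0.225), and its partner Gclm 25.6, 34.2, 12.0 and 24.8 CPM against 4.94, 8.07, 7.75 and 4.47 CPM (-1.90 ± 0.83, adjusted p = 0.415). The Gclm classes did not overlap. Gsr read 9.52, 12.3, 10.9 and 6.15 CPM against 0.548, 2.88, 1.59 and 0.671 CPM (-3.02 ± 1.07, adjusted p = 0.310), also without overlap. Txnrd1 had 1847 counts in 21 low cells and 131 counts in 3 high cells, and 1 cell gave 42.6% of the low side. Gpx4 was lower in the high cells on 4 of 4 plates, at 67.0, 130, 57.4 and 143 CPM against 96.3, 222, 117 and 330 CPM, a log2 difference of -0.88 with an interval from -1.82 to 0.05.

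**Figure D3:**
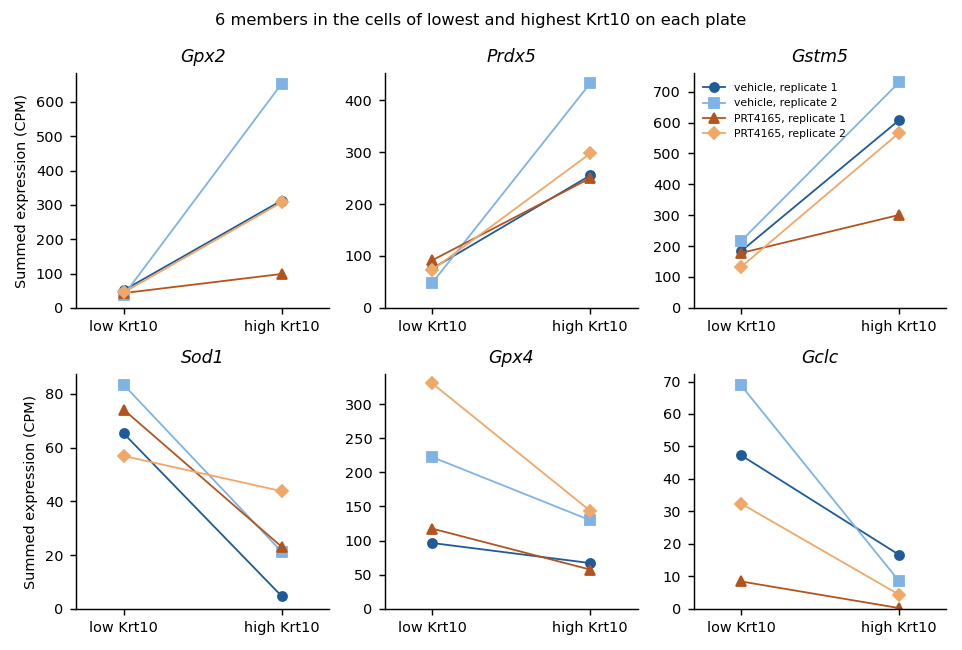
Summed expression in CPM of 6 members in the low and high Krt10 cells of each plate, with 1 line per plate and axes that start at 0. Gpx2, Prdx5 and Gstm5 go up with Krt10 on 4 of 4 plates, and Sod1, Gpx4 and Gclc go down on 4 of 4.

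By direction, 7 of 40 members (17.5%) were higher in the high Krt10 cells on all 4 plates, against 12.0% of all genes, and 11 (27.5%) were lower on all 4, against 12.2% of all genes. The 7 were Gpx2, Gsta1, Gstm5, Gstm6, Gstm7, Prdx5 and Srxn1, and the 11 were Gclc, Gclm, Gpx4, Gsr, Gstm2, Gstp1, Keap1, Prdx2, Prdx3, Sod1 and Txnrd1. At an unadjusted p under 0.05, 6 members were higher (15.0%, against 6.73% of all genes) and 4 lower (10.0%, against 5.5% of all genes). Gstm6 and Gsta1, which are in both counts of higher members, had 0 counts in the low cells and passed the filter on low counts through the high cells alone, so their direction was fixed by that. Srxn1, also in both, had few low cells with a count. Txnrd1, in both counts of lower members, had few high cells with a count. Each passed the filter mainly through its higher side, so its direction was largely fixed too. The median log2 difference was -0.66 over the members and -0.11 over all genes. DESeq2 called 12 members (30.0%, against 13.8% of all genes), and limma-trend on averages in which every cell had equal weight called 6 (15.0%, against 3.78%). The edgeR fit without the block of plates called 4 (10.0%, against 1.5%), namely Gpx2, Gsta1, Gstm6 and Prdx5. The calls of DESeq2 and of limma-trend also include Gstm6 and Gsta1, whose direction was fixed in each. Those of DESeq2 further include Srxn1 and Txnrd1, and those of limma-trend Txnrd1. The 6 of limma-trend were Gpx2, Gsta1, Gstm5, Gstm6, Prdx5 and Txnrd1.

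Depth and other markers moved with Krt10. The high cells had the higher median count on every plate (213761 to 717593, against 92067 to 538754 in the low cells), and their suprabasal marker sum was 21340 to 39762 CPM, against 735 to 1801 CPM. Their basal marker sum was 644 to 2088 CPM against 2614 to 4108 CPM, and their fibroblast sum 0.731 to 1.86 CPM against 7.74 to 109 CPM. Their sebaceous sum was 695, 413, 488 and 538 CPM against 595, 356, 898 and 3984 CPM, and the median mitochondrial share was 17.5%, 17.5%, 22.0% and 26.3% against 15.1%, 26.1%, 17.3% and 29.4%. The part of these differences in the members' values was not tested.

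Over single cells, Prdx5 had a Spearman rho with Krt10 of 0.46, 0.61, 0.45 and 0.46 on the 4 plates, and Sod1 one of -0.52, -0.38, -0.40 and -0.37. Gstm5 lay between 0.18 and 0.29. These are descriptions over 55 to 77 cells of a plate, which share library preparation and differ in depth. Between members, ordered by the lowest value of the 4 plates, Gstm1 and Gstm5 came first (0.32 to 0.70 over the plates), then Gpx1 and Sod1 (0.31 to 0.50), Gpx4 and Sod1 (0.30 to 0.46) and Gstm1 and Gstm2 (0.30 to 0.45), while Gpx1 and Gpx2 ran opposite (-0.32 to -0.17).

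**Figure D4:**
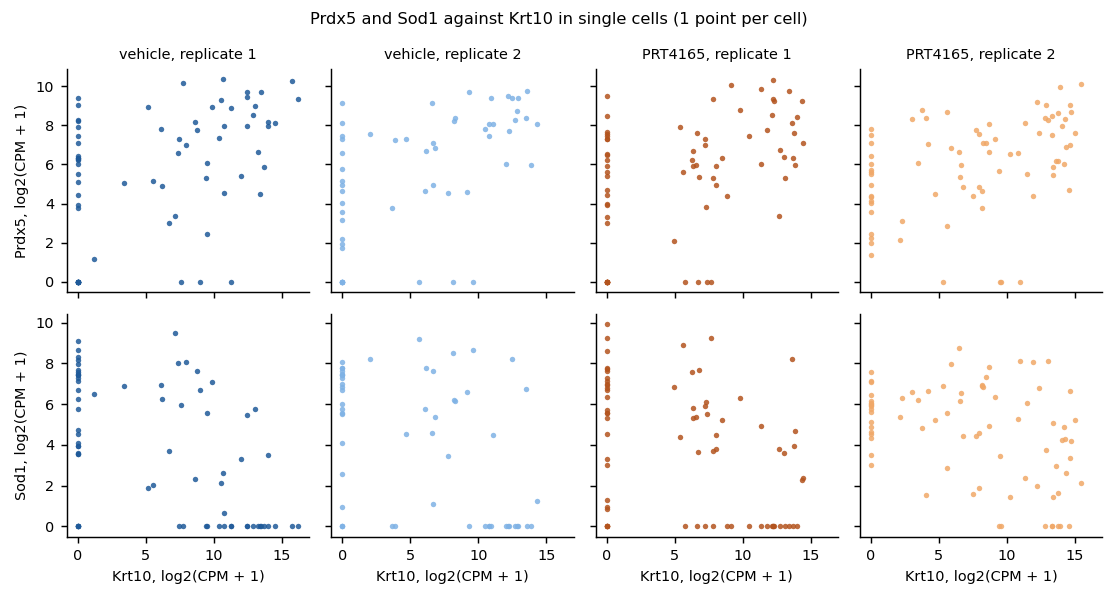
Prdx5 (upper row) and Sod1 (lower row) against Krt10 in single cells, both as log2(CPM + 1), with 1 point per cell and 1 panel per plate. Cells without Sod1 gather at the right of each panel, where Krt10 is high, and cells without Prdx5 lie mostly at lower Krt10.

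Krt14 gave a pattern that in part mirrored the one of Krt10. It read 3543, 5399, 3239 and 2837 CPM in the high cells and 181, 300, 135 and 187 CPM in the low cells, and 16 to 34 cells of a plate lay within 2-fold of the limit. Krt10 was 209, 970, 345 and 1423 CPM in the high Krt14 cells and 11395, 4523, 6770 and 17246 CPM in the low ones. No member of 39 tested passed the adjusted threshold, which 2 of 10216 genes did (0.0196%). Gpx4, Gstm2, Gstp1 and Gstm1 were the members nearest to a call on the high side and Prdx5 on the low side.

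Gpx4 read 231, 196, 199 and 401 CPM in the high Krt14 cells and 61.0, 138, 59.3 and 103 CPM in the low cells, with no overlap (log2 difference 1.54 ± 0.45, adjusted p = 0.414 by edgeR). Gstm2 read 117, 54.0, 105 and 82.4 CPM against 32.1, 17.0, 14.0 and 46.0 CPM (1.82 ± 0.60, adjusted p = 0.441), also with no overlap, and had a count in 61 of 90 high and 35 of 90 low cells. Gstp1 read 84.7, 148, 79.1 and 134 CPM against 21.4, 73.7, 45.2 and 47.9 CPM (1.32 ± 0.50, adjusted p = 0.489). Gstm1 read 294, 169, 391 and 245 CPM against 102, 93.8, 62.3 and 241 CPM (1.26 ± 0.53, adjusted p = 0.535), and its classes overlapped. Prdx5 read 149, 88.2, 134 and 88.2 CPM in the high cells and 231, 256, 210 and 311 CPM in the low cells, a log2 difference of -1.16 ± 0.43 (adjusted p = 0.477).

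The remaining low-side members of smallest p were Hmox1, Gsta1 and Txn1. Hmox1 had 72 counts in 3 high cells and 892 counts in 10 low cells, and 1 cell gave 49.3% of the latter. Gsta1 had 44.7 counts in 1 high cell and 378 in 11 low cells. Txn1 read 1216, 1232, 551 and 722 CPM against 1116, 1709, 1348 and 1420 CPM, a log2 difference of -0.66 with an interval from -1.44 to 0.13, and its classes overlapped.

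By order within plates, 14 of 39 members (35.9%) were higher in the high Krt14 cells on all 4 plates, against 11.3% of all genes, and 3 (7.69%) were lower, against 10.3% of all genes. The 14 take in Gclc, Gclm, Gss and Gsr, which supply glutathione, Gpx1 and Gpx4, Prdx2, Sod1 and Txnrd1, and the transferases Gstm1, Gstm2, Gstp1, Gstp2 and Gstz1. The 3 were Nfe2l2, Prdx1 and Prdx5. At an unadjusted p under 0.05, 4 members were higher (10.3%, against 3.23% of all genes) and 1 was lower (2.56%, against 5.82%). The median log2 difference was 0.79 over the members and 0.10 over all genes. DESeq2 called 5 members (12.8%, against 7.56% of all genes): Gclc, Gsta1, Gstm2, Gstz1 and Hmox1. The high cells were shallower on every plate (median counts 89818 to 466765, against 194682 to 767903), and their basal marker sum was 4591 to 7835 CPM against 461 to 2250 CPM. Their median mitochondrial share was lower on 4 of 4 plates, at 14.6%, 19.5%, 14.4% and 23.2% against 19.7%, 24.9%, 24.5% and 26.9%. Their sebaceous sum was 386, 234, 1899 and 2858 CPM against 609, 413, 509 and 314 CPM, so it was lower in the high cells of the vehicle plates and higher in those of the PRT4165 plates. The part of depth, of mitochondrial share and of other markers was not tested.

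**Figure D5:**
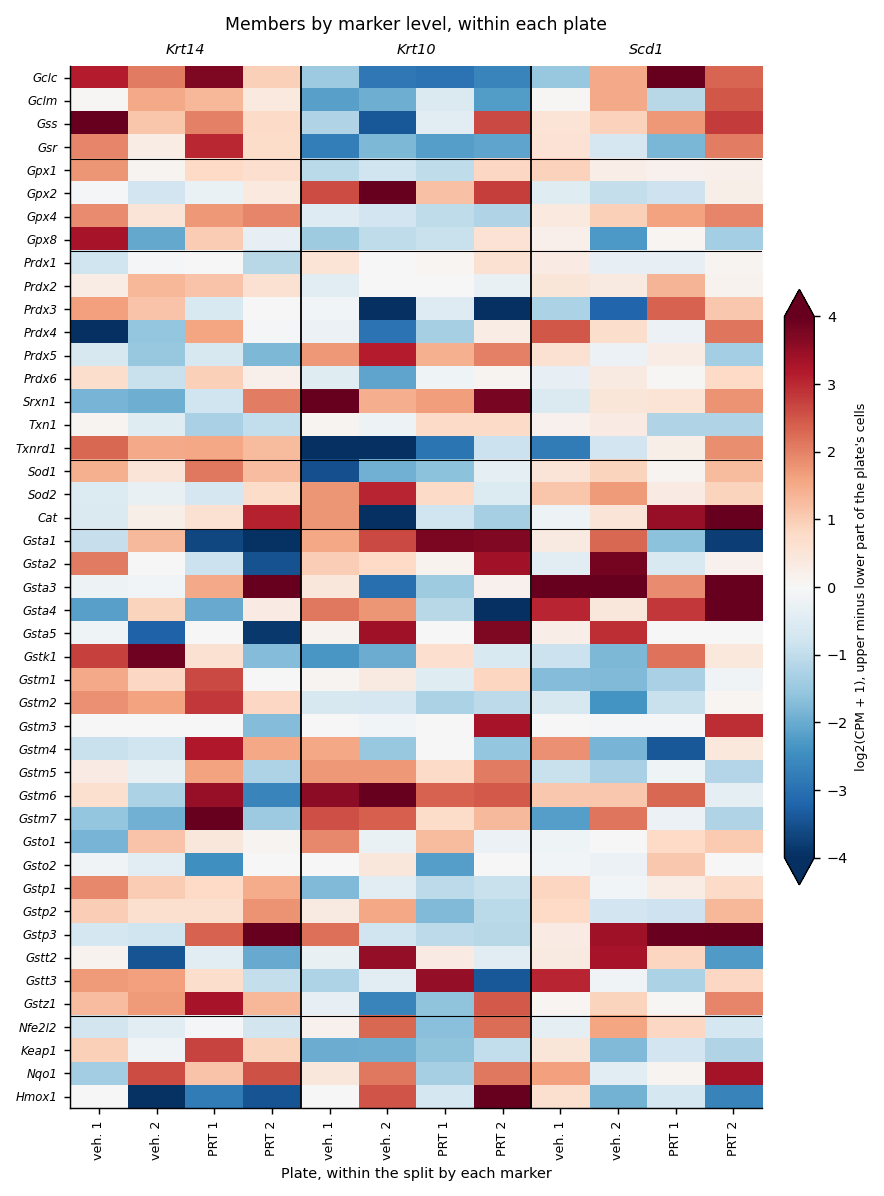
Difference of log2(CPM + 1) between the high and low cells of each plate for the 45 members (rows, grouped by role) in the comparisons by Krt14, Krt10 and Scd1 (4 plates each); red is higher in the high cells, and colours stop at 4 and -4. The rows of Gclc, Gsr and Txnrd1 are red by Krt14 and blue by Krt10 on 4 of 4 plates.

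Scd1 was absent from many cells, so the low class held all 25 to 44 cells of a plate without a count and the high class 16 to 25 cells. Scd1 read 536, 2524, 2057 and 3798 CPM in the high cells. The lowest high cell had 6.06 and 2.62 CPM of Scd1 on the vehicle plates and 144 and 207 CPM on the PRT4165 plates, so the high class was not the same range in both treatments, and 3, 1, 12 and 10 cells of a plate lay within 2-fold of that limit. The sebaceous marker sum, which includes Scd1, was 1353 to 7642 CPM in the high cells and 238 to 441 CPM in the low cells. The suprabasal sum was 15738, 10188, 7474 and 7206 CPM in the high cells and 11610, 7556, 9527 and 22919 CPM in the low cells, and the basal sum 3151, 3844, 1456 and 2036 CPM against 2899, 3927, 3271 and 3311 CPM. No member of 40 tested passed the adjusted threshold, which 1 of 10742 genes did (0.00931%). Gsta3, Gpx4, Gsta4 and Sod2 were nearest to a call on the high side, and Gstm1 and Gstm5 on the low side.

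Gpx4 read 150, 324, 210 and 500 CPM in the high Scd1 cells and 114, 166, 68.6 and 128 CPM in the low cells, a log2 difference of 1.24 ± 0.38 (adjusted p = 0.609 by edgeR). Sod2 read 131, 255, 168 and 146 CPM against 60.4, 77.5, 134 and 78.1 CPM (1.01 ± 0.39, adjusted p = 0.745). Both genes were higher on 4 of 4 plates, and each had 1 low class above a high class of another plate. Gsta3 read 74.0, 53.1, 33.7 and 52.1 CPM in the high cells, with a count in 26 of 88, and 0.361, 0, 8.35 and 1.18 CPM in the low cells, with a count in 8 of 146 (unadjusted p = 0.00774 and adjusted p = 0.530 by edgeR). Its classes did not overlap, but 1 cell gave 98.96% of the Gsta3 counts of vehicle replicate 1. Gsta4 had 500 counts in 11 high cells and 131 counts in 2 low cells, and Gstp3 1500 counts in 25 high cells and 84 counts in 5 low cells.

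Gstm1 read 74.3, 51.2, 109 and 132 CPM in the high Scd1 cells and 248, 178, 272 and 144 CPM in the low cells, a log2 difference of -1.26 ± 0.42 (adjusted p = 0.663 by edgeR). The classes did not overlap. Gstm5 read 285, 193, 247 and 253 CPM against 531, 478, 279 and 573 CPM (-0.89 ± 0.31, adjusted p = 0.672), with 1 low class inside the range of the high ones. Gstm2 (-0.98, interval -2.38 to 0.43) and Hmox1 (-1.44, -3.80 to 0.92) were next and were not lower on every plate. Catalase read 105, 163, 171 and 629 CPM in the high cells and 122, 115, 14.5 and 10.3 CPM in the low cells, so that the low classes of the PRT4165 plates were the lowest. Whether the treatments differed in this was not tested, and the limits of the high class differed between them.

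By direction, 10 of 40 members (25.0%) were higher with Scd1 on all 4 plates, against 8.56% of all genes, and 2 (5.0%) were lower, against 8.46% of all genes. The 10 were Gpx1, Gpx4, Gss, Gsta3, Gsta4, Gstp3, Gstz1, Prdx2, Sod1 and Sod2, and the 2 were Gstm1 and Gstm5. At an unadjusted p under 0.05, 5 members were higher (12.5%, against 2.88% of all genes) and 2 lower (5.0%, against 3.47%). The median log2 difference was 0.37 over the members and -0.01 over all genes. DESeq2 called 3 members, Gsta3, Gsta4 and Gstp3 (7.5%, against 4.65% of all genes). These 3, which are also in both counts of higher members, had counts in few low cells, as given above. They passed the filter on low counts mainly through the high cells, so their direction was largely fixed by that. The part of depth, which was higher in the high cells on 3 of 4 plates, and of the suprabasal and basal sums was not tested.

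The further genes of the pathway had 0 calls in edgeR in any of the 3 comparisons. DESeq2 called 6 of 60 by Krt14, 8 of 62 by Krt10 and 5 of 62 by Scd1. Of all genes it called 7.56%, 13.8% and 4.65%. Limma-trend with equal weight of cells called 4 of 62 by Krt10, against 3.78% of all genes. At an unadjusted p under 0.05 in edgeR, 4 of 60 were higher and 2 lower by Krt14, against 3.23% and 5.82% of all genes. By Krt10 6 of 62 were higher and 3 lower, against 6.73% and 5.5%, and by Scd1 6 of 62 were higher and 3 lower, against 2.88% and 3.47%. Among them, Glrx, a glutaredoxin that removes glutathione from proteins, had the smallest p each time. It read 238, 543, 159 and 448 CPM in the high Krt10 cells and 9.07, 38.2, 5.13 and 133 CPM in the low ones (3.86 ± 0.68, adjusted p = 0.0872), and its log2 difference was -4.19 ± 0.77 by Krt14 and -2.16 ± 0.38 by Scd1. Ftl1, the ferritin light chain, read 40.5, 163, 100 and 333 CPM in the high Krt10 cells and 800, 759, 594 and 894 CPM in the low ones, with no overlap (-2.60 ± 0.53, adjusted p = 0.121). Cul3, the ubiquitin ligase scaffold to which Keap1 bridges NRF2, read 397, 501, 464 and 508 CPM against 237, 62.3, 120 and 131 CPM (1.91 ± 0.46, adjusted p = 0.169). By Scd1, the microsomal transferase Mgst1, itself on the sebaceous list, read 673, 921, 933 and 2640 CPM against 381, 164, 220 and 230 CPM (2.23 ± 0.44, adjusted p = 0.367).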

How the data were processed

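The authors mapped reads to the mouse transcriptome with Salmon 0.13.1 (per the submitters' processing notes) and deposited the estimated counts unscaled, 1 row for each gene symbol and 1 column for each cell, and 18.3% of the values above 0 are not whole. All 289 columns matched a sample's title. Without molecular identifiers, floors and limits reflect counting error alone. Cells were kept with at least 1000 genes and at most 50% of counts from 13 mitochondrial genes, as in the study, which removed 15.

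Counts were summed by plate, or by plate and marker class, rounded, filtered with filterByExpr, scaled by TMM and compared in edgeR 4.0.16 (R 4.3.3; two-sided quasi-likelihood test) with Benjamini-Hochberg adjustment over all genes and a threshold of 0.05. DESeq2 1.42.0 and limma 3.58.1 gave alternatives. Steps were tested on simulated data. Plates are the replicates. The p-values of PRT4165 against vehicle set a difference against the spread between plates. Those of the marker comparisons, with the plate as a block, set it against the spread of the differences within plates. The study describes several biological replicates, which the labels do not tie to cells. The label with the letters AC was taken as vehicle. The replicate number is the labels' batch tag and so pairs plates, and the correlation of deviations between plates of the same number was 0.02. Positions and transcript lengths are from GENCODE M21 (GRCm38), which held 44 members, and lengths are means over protein-coding transcripts.

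Members in at least 20% of the cells of a plate are given by plate. Full statistics go to members past the threshold and otherwise to the 4 of smallest p in each direction. Members, lists and tests were chosen with earlier results of these data known.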

Additional observations from a re-analysis of the deposited data

Results flagged for a closer look

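In the comparisons by marker, 88 sets of 4 plate values were looked at, of which 5 had a plate that stood apart from the other 3 by Dixon's ratio, about what chance gives at 1 in 20. By Krt14, Gpx4 differed by 0.51 on vehicle replicate 2 (log2 of CPM + 1, high minus low) and by 1.73 to 1.95 on the other plates. By Krt10, Gclm differed by -0.57 on PRT4165 replicate 1 against -2.24 to -1.96 elsewhere, Gpx1 by 0.82 on PRT4165 replicate 2 against -1.08 to -0.81, and Gstp3 by 2.19 on vehicle replicate 1 against -1.11 to -0.79. By Scd1, Gpx1 differed by 0.92 on vehicle replicate 1 against 0.18 to 0.26.

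In 5 of the 88 sets both vehicle plates went one way and both PRT4165 plates the other, a difference that was not tested. Of all genes tested, 8.93% did so by Krt14, 9.36% by Krt10 and 11.1% by Scd1. By Krt14, Gstp3 was -0.69 and -0.80 with vehicle against 2.36 and 4.54 with PRT4165, a gap between the means of 4.20, and Gsta3 was -0.20 and -0.11 against 1.51 and 4.20, a gap of 3.01. The sebaceous marker sum went the same way, at 386 and 234 CPM in the high Krt14 cells against 609 and 413 CPM in the low ones with vehicle, and 1899 and 2858 CPM against 509 and 314 CPM with PRT4165, and its part was not tested. By Scd1, Txn1 was 0.19 and 0.31 against -1.20 and -1.21 (-1.45), Gstk1 -0.87 and -1.79 against 2.18 and 0.42 (2.63), and Gsto1 -0.17 and -0.01 against 0.79 and 1.05 (1.01). The suprabasal sum of the high Scd1 cells was likewise above that of the low cells with vehicle (15738 and 10188 CPM against 11610 and 7556 CPM) and below it with PRT4165 (7474 and 7206 CPM against 9527 and 22919 CPM). The high classes also began at different levels of Scd1, 6.06 and 2.62 CPM with vehicle and 144 and 207 CPM with PRT4165, and the part of either was not tested.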

How the results depend on the processing

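The alternatives were RLE size factors, no filter on low counts, DESeq2, equal weight of cells with limma-trend, all cells with no mitochondrial limit, no mitochondrial genes, the replicate block (or no block of plates for the marker comparisons), other limits on the marker (the top 1 in 4 cells against the rest, or 100 CPM) and each plate left out in turn. All 399 recomputed log2 differences of the members with full statistics kept their direction, and 20 passed the threshold. These members were picked by p in the same data and the alternatives reuse the same counts, so kept directions are not independent support. Gstm6 by Krt10, with 0 counts in the low cells, could hardly reverse. With the replicate block, 0 members and 0 genes were called between PRT4165 and vehicle, as without it. DESeq2 called 174 genes between treatments, 5 members by Krt14, 12 by Krt10 and 3 by Scd1. In those marker comparisons it called 772 of 10216 genes (7.56%), 1435 of 10370 (13.8%) and 500 of 10742 (4.65%). By Krt10, equal weight of cells called 6 members and 392 of 10370 genes (3.78%). The fit without the block of plates called 4 members, with 156 genes of 10370 called in all against 25 with the block. Gstm6 and Gsta1, which had 0 counts in the low Krt10 cells, were among the calls by Krt10 of each, DESeq2 included. Every other alternative, each plate left out included, called 0 members. Without vehicle replicate 1, the smallest adjusted p of a member by Krt10 was 0.387 in edgeR, against 0.132 with all plates. The causes were not tested. With 2 plates per treatment and a biological coefficient of variation of 76.9%, small changes of members were not detectable. A log2 difference as large as that of Gstm6 (-2.67) did not pass the threshold either.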
